A study of Homo sapiens with 6 samples.

Results

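Serine synthesis and folate one-carbon enzymes were followed in a pair of human esophageal squamous cell carcinoma (ESCC) lines by RNAseq. The 9 genes, PHGDH, PSAT1, PSPH, SHMT1, SHMT2, MTHFD1, MTHFD1L, MTHFD2 and ALDH1L2, were taken by their symbols from the 58884 rows of the deposited matrix. Each symbol stood on a single row, and all 9 genes were among the 16701 genes tested, whose mean was 10 normalized counts or more. KYSE450 cells, the parental ESCC line with wild-type NRF2, gave 3 libraries. KEAP1null-KYSE450 cells, a monoclonal derivative in which KEAP1 was disrupted with CRISPR-Cas9, gave the other 3. Both lines grew in the same serum-containing RPMI1640 medium without treatment. Since KEAP1null-KYSE450 is 1 clone, the loss of KEAP1 and any other property of that clone cannot be told apart. Nothing in the sources used here says that the libraries of a line came from separate cultures, so p-values measure the spread between these libraries, which may be technical.

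Cells make serine from the glycolytic intermediate 3-phosphoglycerate in consecutive steps run by PHGDH, PSAT1 and PSPH. Serine hydroxymethyltransferases then split serine into glycine and a one-carbon unit carried on folate, which is used to build purines and thymidylate and to regenerate methionine. The folate reactions exist as parallel arms, with SHMT1 and MTHFD1 in the cytosol and SHMT2, MTHFD2, MTHFD1L and ALDH1L2 in mitochondria. KEAP1 is the adaptor that marks the transcription factor NRF2 (gene NFE2L2) for degradation. In lung cancer cells, NRF2 is known to act on serine synthesis genes through ATF4, the transcription factor of the amino acid response.

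Values are normalized counts, that is, reads per gene divided by the size factor of the library. They summed to between 54829313 and 57380170 per library. Differences were tested with limma on log2(normalized count + 1), with Benjamini-Hochberg adjustment over all genes tested, and a gene was said to have risen or fallen at an adjusted p under 0.05 with a log2 fold change of 1 or more in size. Log2 fold changes are KEAP1null-KYSE450 over KYSE450 and understate the change of low genes. The edited gene itself, KEAP1, stood at 5760, 5226 and 5146 normalized counts in KYSE450 and 5737, 4906 and 5317 in KEAP1null-KYSE450, and counts per gene cannot show the edit. NQO1, a detoxification enzyme used as a readout of NRF2, rose from 16625 ± 817 to 107758 ± 3247 normalized counts (mean ± SD, n = 3 libraries per line). Correlation of the log2 values over the genes tested was 0.984 to 0.989 within a line and 0.924 to 0.936 across lines. All 10 squamous markers averaged 10 normalized counts or more, and their sum was 363591 to 501387 in KYSE450 and 583138 to 729929 in KEAP1null-KYSE450. The higher sum came from KRT5 (means of 208100 and 568248 normalized counts), while 7 of the 10 had lower means in KEAP1null-KYSE450, among them KRT6A (71578 and 2738) and KRT17 (50937 and 1763). Of other cell types, 1 of 8 fibroblast markers (COL1A1), 2 of 4 endothelial markers (VWF and CDH5) and 0 of 6 blood cell markers reached that level, while COL1A2, DCN and PECAM1 were below 1 normalized count in both lines. The fibroblast sum was 624 to 856 and 354 to 437 normalized counts, the endothelial sum 59.9 to 74.8 and 48.0 to 70.6, and the blood cell sum 1.86 to 39.4 and 9.17 to 12. In bulk RNA, fewer cells expressing a gene and less of its RNA per cell cannot be told apart.

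Of the 9 enzymes, only ALDH1L2 passed both thresholds, and it rose. Across all genes tested, 12.2% passed both thresholds with higher values in KEAP1null-KYSE450 and 5.98% with lower values, so 1 enzyme higher and 0 lower is near the background. At an unadjusted p under 0.05 limma had 4 enzymes higher, against 27.6% of all genes, and 3 lower, against 28.4%. Likewise edgeR and DESeq2 on the recovered reads gave 1 higher and 0 lower past both thresholds. By adjusted p alone 4 enzymes were higher, PHGDH, PSAT1, PSPH and ALDH1L2, against 24.3% of all genes. SHMT2 and MTHFD1L were lower by adjusted p alone, against 25.5% of all genes. The libraries of the lines did not overlap for 4 enzymes with higher and 3 with lower values, and among all genes tested the share without overlap, in either direction, was 57.8%. The median log2 fold change was -0.09 over the 9 enzymes and 0.00 over all genes. Quantile normalization moved the split of all calls from 2045 higher and 999 lower (67.2% higher) to 1388 and 1289 (51.8% higher), and the log2 fold changes of the 8 enzymes other than ALDH1L2 were all higher under it, from -0.54 for MTHFD1L to 0.88 for PSAT1.

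**Figure D1:**
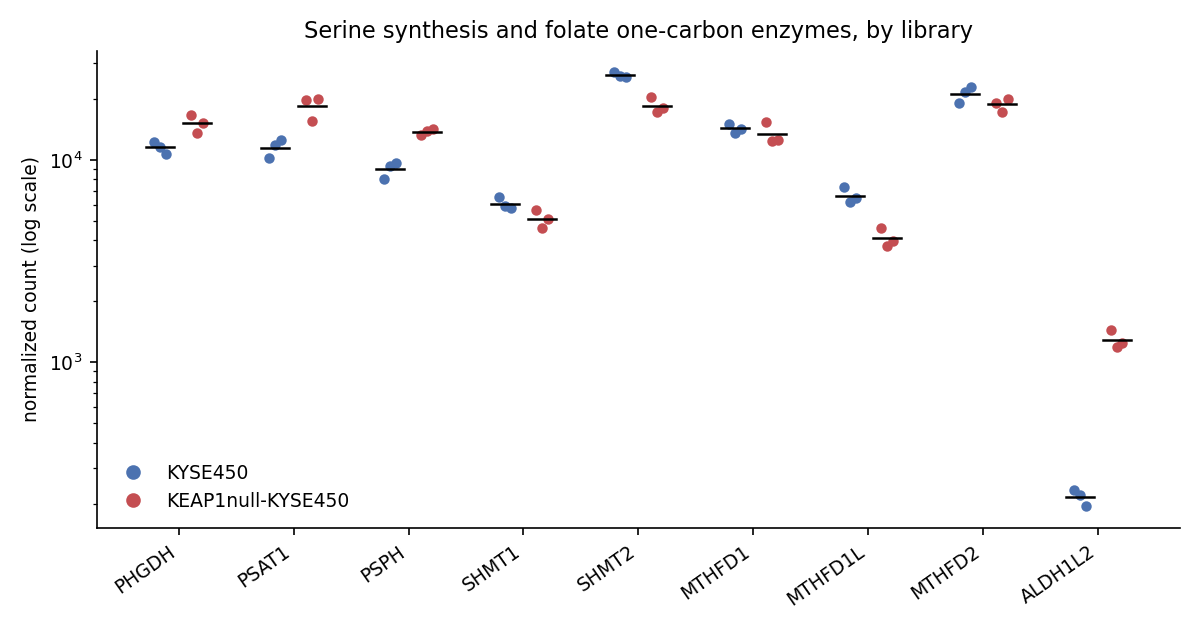
Normalized counts (log scale) of the 9 enzymes in each library. Points are libraries (blue KYSE450, red KEAP1null-KYSE450) and bars are means of 3. The 3 serine synthesis genes and ALDH1L2 have every red point above every blue point, SHMT1, SHMT2 and MTHFD1L have every red point below, and MTHFD1 and MTHFD2 overlap.

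The 3 enzymes that make serine were higher in KEAP1null-KYSE450 without reaching the fold threshold. PHGDH (ENSG00000092621, hg38 chr1:119648411-119744218, plus strand) oxidizes 3-phosphoglycerate and commits it to serine. It had 12265, 11565 and 10700 normalized counts in KYSE450 against 16655, 13543 and 15238 in KEAP1null-KYSE450. Every KEAP1null-KYSE450 library was above every KYSE450 library. The means were 11510 ± 784 and 15145 ± 1558 (SD, n = 3), a log2 fold change of 0.39 (SE 0.10, 95% interval 0.17 to 0.62, adjusted p = 0.0068 by limma). On the reads recovered from 4 libraries, against the 6 used by limma, its adjusted p was 0.077 with edgeR and 0.068 with DESeq2. The log2 fold changes there were 0.43 and 0.40.

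PSAT1 (ENSG00000135069, chr9:78297125-78330093, plus strand), the aminotransferase of the next step, which draws its nitrogen from glutamate, had 10201, 11791 and 12470 normalized counts in KYSE450 and 19758, 15571 and 20003 in KEAP1null-KYSE450. The groups did not overlap, although the lowest KEAP1null-KYSE450 library lay well under the other two. The log2 fold change was 0.68 (SE 0.12, 95% interval 0.42 to 0.93, adjusted p = 0.00047 by limma). PSPH (ENSG00000146733, chr7:56011051-56051604, minus strand), the phosphatase that releases serine, had 8036, 9317 and 9683 normalized counts in KYSE450 and 13267, 13822 and 14242 in KEAP1null-KYSE450. These libraries were the tightest of any enzyme in KEAP1null-KYSE450, with a coefficient of variation of 3.55%. Its log2 fold change was 0.62 (SE 0.10, 95% interval 0.41 to 0.83, adjusted p = 0.00022 by limma).

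PSPH shares sequence with the pseudogene PSPHP1, so reads could be split between them. PSPHP1 took 7.44% to 12.9% of the joint normalized counts, and its log2 fold change was 0.00 (adjusted p = 1). The sum of both had a log2 fold change of 0.56 (SE 0.10, adjusted p = 0.00061), an alternative chosen after the data were seen. Summed per library, the serine synthesis enzymes went from 32009 ± 1308 to 47366 ± 3838 normalized counts, 1.48 times the KYSE450 mean, which is given as a description without a test.

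The cytosolic folate enzymes did not pass the adjusted p. SHMT1 (ENSG00000176974, chr17:18327860-18363563, minus strand), the cytosolic serine hydroxymethyltransferase, had 6515, 5893 and 5789 normalized counts in KYSE450 and 5625, 4577 and 5110 in KEAP1null-KYSE450. All KEAP1null-KYSE450 values were below all KYSE450 values, but the lowest KYSE450 and the highest KEAP1null-KYSE450 library were close. The log2 fold change was -0.25 (SE 0.10, 95% interval -0.47 to -0.03), with an adjusted p of 0.055 by limma. Of 15 other settings only 1 had an adjusted p under 0.05, that without KEAP1null-KYSE450 library 1 (0.023 by limma). On the recovered reads the adjusted p was 0.30 with edgeR and 0.27 with DESeq2.

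MTHFD1 (ENSG00000100714, chr14:64388031-64463457, plus strand) is a single cytosolic protein that interconverts the one-carbon forms of folate. It had 15041, 13601 and 14276 normalized counts in KYSE450 and 15435, 12342 and 12596 in KEAP1null-KYSE450. The highest and the lowest of the 6 libraries both belonged to KEAP1null-KYSE450, so the groups overlapped. The log2 fold change was -0.09 (SE 0.11, 95% interval -0.32 to 0.13, adjusted p = 0.48 by limma), and its sign turned to 0.10 under quantile normalization. The 2 cytosolic enzymes summed to 20372 ± 1064 normalized counts in KYSE450 and 18561 ± 2199 in KEAP1null-KYSE450, a description without a test.

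The mitochondrial enzymes went different ways. SHMT2 (ENSG00000182199, chr12:57229573-57234935, plus strand), which supplies mitochondria with glycine and one-carbon units from serine, had 27041, 25843 and 25642 normalized counts in KYSE450 and 20414, 17151 and 18015 in KEAP1null-KYSE450. Every KEAP1null-KYSE450 library was well below the KYSE450 libraries, which were the tightest of any enzyme in that line (coefficient of variation 2.89%). The log2 fold change was -0.50 (SE 0.10, 95% interval -0.71 to -0.29, adjusted p = 0.001 by limma), short of the fold threshold. On the reads recovered from 4 libraries the adjusted p was 0.066 with edgeR and 0.016 with DESeq2.

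MTHFD1L (ENSG00000120254, chr6:150865679-151101887, plus strand) makes the formate that leaves mitochondria for the cytosol. Its normalized counts were 7323, 6190 and 6448 in KYSE450 and 4603, 3741 and 3984 in KEAP1null-KYSE450. No library of one line came near the other line. The log2 fold change of -0.70 (SE 0.11, 95% interval -0.93 to -0.47, adjusted p = 0.00017 by limma) was the most negative of the 9 and still within the fold threshold.

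MTHFD2 (ENSG00000065911, chr2:74186172-74217565, plus strand), the mitochondrial dehydrogenase and cyclohydrolase that is high in embryonic and tumor cells, had 19103, 21604 and 22964 normalized counts in KYSE450 and 19111, 17291 and 19991 in KEAP1null-KYSE450. KYSE450 library 1 lay inside the KEAP1null-KYSE450 range and the other KYSE450 libraries above it. The log2 fold change was -0.17 (SE 0.10, 95% interval -0.40 to 0.05, adjusted p = 0.18 by limma). Without KYSE450 library 1 it was -0.25 with an adjusted p of 0.048 by limma, and only this 1 of 15 other settings was under 0.05. Under quantile normalization the log2 fold change was 0.03.

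ALDH1L2 (ENSG00000136010, chr12:105019784-105107643, minus strand), the mitochondrial enzyme that oxidizes formyl-folate to carbon dioxide and yields NADPH, was the enzyme that rose. It had 233, 221 and 194 normalized counts in KYSE450 and 1439, 1190 and 1238 in KEAP1null-KYSE450. The KEAP1null-KYSE450 libraries lay within a narrow range far above the parental ones. The means were 216 ± 20.1 and 1289 ± 132 (SD, n = 3), a ratio of 5.96, and the log2 fold change was 2.57 (SE 0.14, 95% interval 2.28 to 2.86, adjusted p = 1.5e-08 by limma). It passed both thresholds with every library left out in turn, with edgeR and with DESeq2, at log2 fold changes between 2.49 and 2.66. ALDH1L1, its cytosolic counterpart, was close to the floor of 3 reads in both lines and was not tested.

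**Figure D2:**
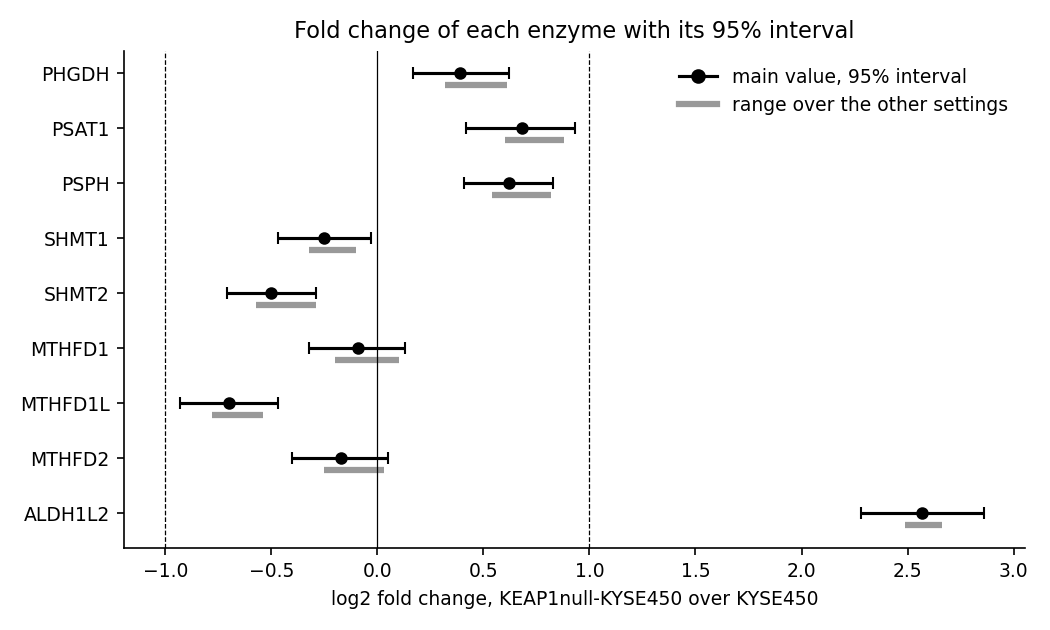
Log2 fold change of each enzyme, KEAP1null-KYSE450 over KYSE450, from limma (points) with 95% intervals (bars). Grey bars span the values under the other processing settings, and dashed lines mark the fold threshold of 1 in either direction. Only ALDH1L2, at 2.57, lies beyond a dashed line, and the grey bars of MTHFD1 and MTHFD2 cross 0.

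The 4 mitochondrial enzymes together had 54269 ± 851 normalized counts in KYSE450 and 42722 ± 3127 in KEAP1null-KYSE450, 0.787 of the parental mean. This sum is a description without a test and is not scaled by transcript length. Most of it is SHMT2 and MTHFD2 (means of 26175 and 21224 in KYSE450, against 216 for ALDH1L2), so the rise of ALDH1L2 hardly shows in it.

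To compare the compartments within a library, the log2 ratio to a cytosolic partner was taken for SHMT2, MTHFD1L and MTHFD2. No ratio was taken for ALDH1L2, whose cytosolic counterpart ALDH1L1 was close to the floor. SHMT2 over SHMT1 was 2.05, 2.13 and 2.15 in KYSE450 and 1.86, 1.91 and 1.82 in KEAP1null-KYSE450, a difference of -0.25. MTHFD1L over MTHFD1 was -1.04, -1.14 and -1.15 in KYSE450 and -1.75, -1.72 and -1.66 in KEAP1null-KYSE450, a difference of -0.60. Both ratios were lower in every KEAP1null-KYSE450 library, with spreads between libraries of 0.04 to 0.06 (SD). For each, the two-sided exact permutation test gave p = 0.1, the smallest that 3 against 3 libraries allow (adjusted p = 0.15 over the 3 ratios). MTHFD2 over MTHFD1 was 0.34, 0.67 and 0.69 in KYSE450 and 0.31, 0.49 and 0.67 in KEAP1null-KYSE450, with overlapping groups and an exact permutation p of 0.5.

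**Figure D3:**
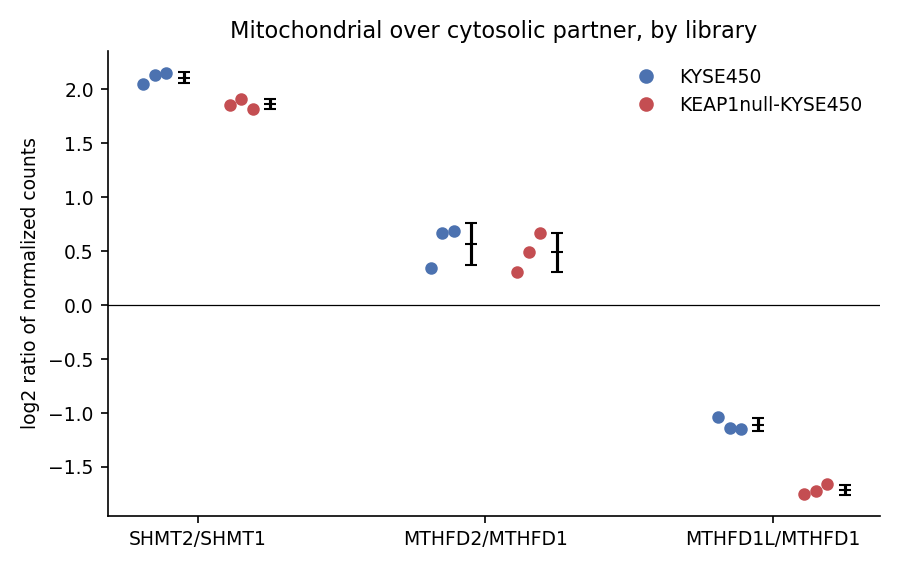
Log2 ratio of the normalized counts of a mitochondrial enzyme to its cytosolic partner in each library (blue KYSE450, red KEAP1null-KYSE450), with mean and SD of 3 libraries beside the points. The ratios of SHMT2 to SHMT1 and of MTHFD1L to MTHFD1 separate by line, and that of MTHFD2 to MTHFD1 does not.

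To compare levels between enzymes, normalized counts were divided by the length of the canonical transcript. In KYSE450, SHMT2 was highest with 12135 ± 351 normalized counts per kilobase, followed by PHGDH with 6168 ± 420. PSAT1, MTHFD2, PSPH and MTHFD1 followed with means between 4536 and 5207 normalized counts per kilobase, each overlapping its neighbour in the order. SHMT1 at 2400, MTHFD1L at 1928 and ALDH1L2 at 29.1 normalized counts per kilobase each stood apart. In KEAP1null-KYSE450, SHMT2 (8589 ± 784), PSAT1 (8361 ± 1129) and PHGDH (8116 ± 835) overlapped at the top of the order, PSPH at 6979 ± 248 lay below SHMT2 and PHGDH but overlapped PSAT1, and ALDH1L2 remained last at 173 ± 17.8 normalized counts per kilobase. With the length of all merged exons in place of the canonical transcript the order changed, and PHGDH moved from rank 2 to rank 6 in KYSE450.

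Within KEAP1null-KYSE450 the same library tended to be lowest. KEAP1null-KYSE450 library 2 was the lowest of its line for 8 of the 9 enzymes, while it was the lowest for 33.4% of all genes tested. KEAP1null-KYSE450 library 1 was the highest of its line for 6 enzymes, and KYSE450 library 1 was the highest of its line for the same 6. PSAT1, PSPH and MTHFD2 were highest in library 3 of both lines. Library numbers follow column order, and whether libraries of the same number share a batch was not tested. The share of all genes highest in a library was not taken. Without library 2, the log2 fold changes of PHGDH, PSAT1 and PSPH were 0.47, 0.80 and 0.61, and those of SHMT2 and MTHFD1L were -0.45 and -0.63, all with an adjusted p under 0.05 by limma.

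Genes beside the enzymes on the chromosome gave a reference, which was not always local. The median log2 fold change of the 20 nearest genes averaging 100 normalized counts or more was 0.02 around PHGDH, 0.01 around PSPH and -0.06 around ALDH1L2. Around PSAT1 it was 0.42, against 0.68 for PSAT1 itself, and around MTHFD1L it was -0.27, against -0.70 for the gene. The neighbours of SHMT2 had a median of -0.15 and those of MTHFD1, with 0.48, lay above the gene's own value of -0.09. Around SHMT1 the median of -0.23 was close to the -0.25 of SHMT1 itself, and around MTHFD2 it was 0.05, against -0.17. The neighbours of PSPH spanned chr7:47963288-64711577 and those of PSAT1 chr9:72900671-83956986. Single neighbours ranged widely, with log2 fold changes of -1.79 to 3.32 around ALDH1L2 and -1.01 to 4.92 around PSAT1. Whether the dosage of these regions differs between the clone and its parent was not tested.

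Some exons are shared with genes on the opposite strand, and the strand setting of the counting is not given in the sources used here. For ALDH1L2 these are NOPCHAP1, over 1.5% of its exon bases (mean of 1053 normalized counts), and WASHC4, over 1.4% (3293). Both means, taken over the 6 libraries, are above the 216 of ALDH1L2 in KYSE450. That of NOPCHAP1 is below the 1289 of ALDH1L2 in KEAP1null-KYSE450. What such reads add to the counts of ALDH1L2 was not tested. SHMT1 shares 2.8% of its exon bases with SMCR8 (3795), and MTHFD2 shares 11.6% with SLC4A5 (3.60). MTHFD1 shares 9.0% with ENSG00000272909 (8.35) and 1.0% with ZBTB25 (690), and SHMT2 shares 7.7% with ENSG00000276727 (0.83).

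Promoter windows were read to show where letters of known binding motifs lie. RefSeq entries on GRCh38 (hg38) were matched for 6 of the 9 enzymes, in 9 windows of 300 bases, 250 before and 50 after a start site. No window was available for PSPH, SHMT2 and ALDH1L2, so the enzyme that rose was not read. MTHFD1L had several of the windows, some overlapping and holding the same matches, and each other enzyme had a single window. The motifs, searched on both strands, were TGACNNNGC (the antioxidant response element bound by NRF2), TGATGNAA (the element bound by ATF4 with a C/EBP partner) and CACGTG (the E-box bound by MYC). They occur in 13.3%, 3.6% and 7.3% of 35116 such windows. The matches are shown as stretches of 30 bases, plus strand, with the motif in capitals, to show which enzymes carry which letters.
MTHFD1L, ATF4 element, chr6:150866346-150866375: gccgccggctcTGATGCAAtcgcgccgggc
MTHFD1L, E-box, chr6:150866320-150866349: cacgcccggctcCACGTGcgcagccggccg
MTHFD1, E-box, chr14:64388326-64388355: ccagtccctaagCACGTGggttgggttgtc
MTHFD2, antioxidant response element on the reverse strand, chr2:74198611-74198640: ttccctcccgGCGCAGTCAccggcgcggtc
The windows of PHGDH, PSAT1 and SHMT1 held none of these letters. MTHFD1L, the member with an ATF4 element and an E-box, had lower values in KEAP1null-KYSE450, while MTHFD1 and MTHFD2 overlapped between the lines. A match is a description of the sequence. Binding was not measured here, and a link between motif and direction was not tested.

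The transcription factors tied to these motifs were measured as mRNA. NFE2L2 had 11010 ± 341 normalized counts in KYSE450 and 7948 ± 144 in KEAP1null-KYSE450 (log2 fold change -0.47, adjusted p = 0.00063 by limma). ATF4 had 19698 ± 849 and 15457 ± 1807 normalized counts (log2 fold change -0.36, adjusted p = 0.013). MYC had 15320 ± 1403 and 18853 ± 1120 normalized counts (log2 fold change 0.30, adjusted p = 0.024). None of these 3 reached the fold threshold, and their mRNA levels say nothing of the protein.

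Lists of connected genes were read beside the enzymes by their counts. Among all genes tested, 12.2% rose and 5.98% fell, and by adjusted p alone 24.3% were higher and 25.5% lower. Of 25 genes of the amino acid response regulated by ATF4, 2 rose and 2 fell. By adjusted p alone 4 were higher (16%) and 9 lower (36%), and the median log2 fold change was -0.16. SLC7A11, the cystine importer, which NRF2 also regulates, rose from 2452, 2141 and 2440 to 16496, 13135 and 12491 normalized counts (log2 fold change 2.57, adjusted p = 3.1e-09). NUPR1, a stress-response transcription regulator, rose with a log2 fold change of 2.23 (adjusted p = 1.9e-06). SLC7A5 and SLC3A2, the partners of the large neutral amino acid transporter, fell with log2 fold changes of -1.47 (adjusted p = 3.9e-05) and -1.15 (adjusted p = 1e-04), and that of SLC3A2 was -0.98 without KEAP1null-KYSE450 library 2. The genes of this list that passed both thresholds went in both directions, and 2 higher and 2 lower of 25 is near the shares of all genes.

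Of the 16 tested genes of glycine cleavage and serine handling, 2 rose and 1 fell, against 12.2% and 5.98% of all genes. By adjusted p alone 3 were higher (18.8%, against 24.3%) and 6 lower (37.5%, against 25.5%), with a median log2 fold change of -0.08. SLC1A4, a carrier of serine and other neutral amino acids, went from 401, 369 and 333 to 1144, 733 and 914 normalized counts (log2 fold change 1.32, adjusted p = 3.3e-05). SDSL, a protein similar to serine dehydratase, had a log2 fold change of 1.18 (adjusted p = 8.6e-06). GLDC, the decarboxylase of the glycine cleavage system, was the gene that fell, at 27.8, 17.2 and 48.5 against 21.2, 3.06 and 3.03 normalized counts. It is named here after its values were seen, and its groups overlapped. Its adjusted p was 0.11 with edgeR, 0.15 with DESeq2, and 0.10, 0.094 and 0.095 by limma without KYSE450 library 3, KEAP1null-KYSE450 library 2 and KEAP1null-KYSE450 library 3. SFXN1, the mitochondrial serine carrier, had a log2 fold change of -0.50 (adjusted p = 0.00067) within the fold threshold, in the same direction as SHMT2, and was also picked after its values were seen.

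The folate cycle and uptake list had 14 tested genes and 0 past both thresholds by limma, edgeR or DESeq2. By adjusted p alone 4 were higher (28.6%, against 24.3% of all genes) and 6 lower (42.9%, against 25.5%). The counts at an unadjusted p under 0.05 were the same, against 27.6% and 28.4% of all genes, and the median was -0.20. TYMS, which uses a one-carbon unit to make thymidylate, had a log2 fold change of -0.38 (adjusted p = 0.0051), which was -0.19 (adjusted p = 0.12) under quantile normalization. Of 13 genes of de novo purine synthesis, 1 rose and 0 fell by each of limma, edgeR and DESeq2. The limma shares over all genes were 12.2% and 5.98%. By adjusted p alone 2 purine genes were higher (15.4%, against 24.3% of all genes) and 7 lower (53.8%, against 25.5%). At an unadjusted p under 0.05 these were 2 and 9, against 27.6% and 28.4% of all genes, and the median was -0.23. The gene that rose, ADSS1 (ADSSL1 in the matrix), is an adenylosuccinate synthase known mainly from muscle, with 150, 152 and 109 against 298, 255 and 296 normalized counts (log2 fold change 1.05, adjusted p = 0.00056), and its log2 fold change was 0.90 without KYSE450 library 3. Of 9 tested genes of the methionine cycle and transsulfuration, 0 passed both thresholds by limma, edgeR or DESeq2. By adjusted p alone 2 were higher and 2 lower (22.2% each), near the 24.3% and 25.5% of all genes. At an unadjusted p under 0.05 these were 2 and 3, against 27.6% and 28.4% of all genes, and the median was 0.03.

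Most proliferation genes were lower in KEAP1null-KYSE450 within the fold threshold, and 1 of 18 fell past both thresholds, against 5.98% of all genes. By adjusted p alone 16 of the 18 were lower, against 25.5% of all genes, the exceptions being PCNA and CDK1, with 0 higher at that threshold or at an unadjusted p under 0.05, and the median log2 fold change was -0.63. MKI67, the proliferation antigen, fell from 21783, 15166 and 15003 to 8317, 8440 and 7293 normalized counts (log2 fold change -1.09, adjusted p = 3.5e-05), and its log2 fold change was -0.92 without KYSE450 library 1. SHMT2, MTHFD1L and 7 of 13 purine genes were lower in the same line by adjusted p alone, and the part of proliferation in these values was not tested.

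**Figure D4:**
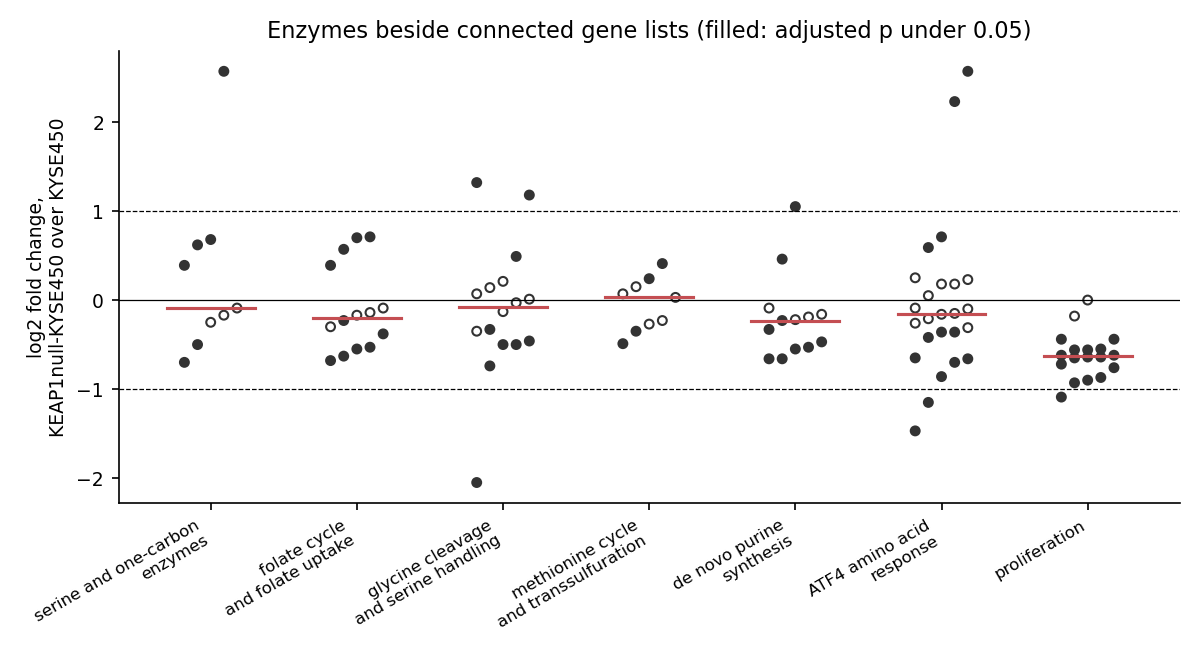
Log2 fold changes (KEAP1null-KYSE450 over KYSE450) of the 9 enzymes and of 6 lists of connected genes. Each point is a tested gene, filled at an adjusted p under 0.05, red lines are medians and dashed lines the fold threshold. The medians lie between -0.63 for proliferation and 0.03 for the methionine cycle list, with that of the 9 enzymes at -0.09.

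Genes with the most similar pattern over the 6 libraries were sought among 12340 genes averaging 100 normalized counts or more, by the root mean square distance of log2 values after each gene's mean was taken off. For PHGDH these were ZNF746 (distance 0.0311), PRKCZ (0.0334) and ASRGL1 (0.0398). For ALDH1L2 they were MEGF9 (0.0527), SLC9A3R1 (0.0767) and ASPH (0.0872), with log2 fold changes of 2.52, 2.55 and 2.68. The likeness is a description over 6 libraries of 2 lines.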

How the data were processed

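RNAseq of 3 KYSE450 and 3 KEAP1null-KYSE450 libraries was used. According to the submitters' processing notes and the methods, the authors checked reads with FastQC 0.11.5, trimmed them with cutadapt 1.12, aligned them to hg38 with STAR 2.6.90c and counted them per gene with featureCounts 1.5.1. The deposited matrix holds these counts after normalization, a signal per gene and library. Its columns name the line but no replicate, so library numbers follow column order and name libraries only. 

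In 4 libraries (KYSE450 1 and 3, KEAP1null-KYSE450 1 and 2) 100% of values were whole multiples, within 0.1, of what 1 read is worth, which gave 53027359 to 61543442 reads. For KYSE450 2 and KEAP1null-KYSE450 3 this share is not given, and their reads were not used. The floor of 3 reads lay between 2.77 and 3.21 normalized counts and covers counting error only.

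Genes with a mean of at least 10 were tested with limma 3.58.1 in R 4.3.3 (lmFit, eBayes with trend) on log2(normalized count + 1), two-sided, with Benjamini-Hochberg adjustment over 16701 genes. Ratios of partner enzymes were tested with the exact permutation test over libraries. edgeR 4.0.16 (TMM, quasi-likelihood test) and DESeq2 1.42.0 (its own size factors) were run on the recovered reads. As alternatives, the pseudocount was set to 0.1 or 10, the filter was dropped or raised to 100, libraries were scaled to equal totals or quantile normalized, the trend was dropped, each library was left out, and adjusted p was used alone. The fits were tested on simulated data. Genes are identified by Ensembl in the matrix, although RefSeq is the annotation given in the methods. Positions, transcript lengths and exon overlaps came from GENCODE on hg38, which may differ from the gene models counted.

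The enzymes and gene lists were chosen with earlier results of these data known, so no p over a list is given. Besides the 9 enzymes, the genes named were KEAP1, NFE2L2, NQO1, ATF4, MYC and TYMS, up to 3 genes per list and direction with the largest change past both thresholds (mean of 100 or more in the line with more), and the 3 genes most like PHGDH and ALDH1L2. A further gene of the rule is not reported here. Genes named outside this rule are said to be so or stand beside an enzyme as its copy, counterpart or overlapping gene.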

Additional observations from a re-analysis of the deposited data

How the results depend on the processing

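Over the other settings, the log2 fold changes were 0.32 to 0.61 for PHGDH, 0.60 to 0.88 for PSAT1, 0.54 to 0.82 for PSPH, -0.32 to -0.10 for SHMT1, -0.57 to -0.29 for SHMT2, -0.78 to -0.54 for MTHFD1L and 2.49 to 2.66 for ALDH1L2, with no change of sign. Quantile normalization turned MTHFD1 to 0.10, MTHFD2 to 0.03 and KEAP1 to 0.14. KEAP1 was 0.02 after scaling to equal totals and between -0.07 and 0.04 with each library left out, positive without KYSE450 library 1 (0.03) or KEAP1null-KYSE450 library 2 (0.04). Of the factors, MYC kept an adjusted p under 0.05 in 8 of 15 settings, ATF4 in 11 and NFE2L2 in 14, and so did TYMS in 13. With each library left out, the ratio of MTHFD2 to MTHFD1 differed between the lines by -0.19 to 0.01, the latter without KEAP1null-KYSE450 library 1.

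By adjusted p alone, 4 enzymes were higher and 2 lower, against 4 and 6 in the folate list, 2 and 2 in the methionine list, 2 and 7 in the purine list and 4 and 9 in the ATF4 list, with 6 glycine and serine genes and 16 proliferation genes lower. The shares over all genes tested were 24.3% higher and 25.5% lower. Under quantile normalization 2 glycine and serine genes, 1 ATF4 gene and 0 proliferation genes were lower past both thresholds, and 0 purine genes were higher. The glycine and serine list had 0 lower with a mean of at least 100, without trend, with edgeR and with DESeq2. Without 1 library at a time it had 0 to 1 lower, the purine list 0 to 1 higher, the ATF4 list 1 to 3 lower and the proliferation list 0 to 3 lower. With a mean of at least 100, GLDC (means of 31.2 and 9.1 normalized counts in KYSE450 and KEAP1null-KYSE450) was left out by the filter itself. The cause of the other shifts was not tested.

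No paired analysis was possible because the columns carry no replicate number. With 3 libraries a line, the partner ratios could not pass 0.05. KEAP1null-KYSE450 is 1 clone, and the libraries of KYSE450 2 and KEAP1null-KYSE450 3 entered no count test.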
